A study of Mus musculus with 171 samples.

Results

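Racgap1, Kif20a, Mad2l1 and Cenpk are 4 genes that work in chromosome segregation and in the final separation of daughter cells. These genes, and the comparisons below, were chosen with earlier results of these data known, so the p-values and counts of calls do not rest on a blind choice. Their probes were found by symbol in the platform annotation, which gives them 6 of the 8734 probes on the array. It names 5755 genes by a probe with a single symbol. Kif20a and Mad2l1 have 2 probes each, and Racgap1 and Cenpk have 1 each. The series is a survey of mouse expression in which total RNA of 88 sources (organs, regions, stages, tumours and sorted or separated cells) was set against a universal mouse reference RNA on arrays with 2 channels. Of the sources, 83 have 2 arrays and 5 have 1. Nothing in the labels says that the arrays of a source come from separate animals, so the p-values measure the spread between arrays, which may be technical.

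The groups used here are named by organ and stage. Young stages were liver at embryonic day 14 (E14, which the labels call hematopoietic) and postnatal day 14 (P14), lung at E13.5, E16.5, E18.5, P1, P5, P12 and P24, kidney at E18.5 and P2, wild-type heart at E14.5, small intestine at E16.5, P1 and P14, whole brain at E18.5 and P2, skin at E16 and P2 (labelled P2 to 3), and male bladder at P1. Adult sources included fed liver, lung, kidney, heart ventricle and atrium, 3 parts of the small intestine, 6 brain regions, bladder, thyroid, muscle and epididymis. The lymphoid sources were C57 spleen, adult thymus, lymph nodes unstimulated or stimulated with complete Freund's adjuvant, mononuclear cells from a Ficoll gradient of blood, and 1 array of column-purified CD4+ T cells activated through CD3 and CD28. The remaining comparisons used testis, uterus (virgin in diestrus, virgin in estrus, day 4.5 of pregnancy), awn hair of the back in anagen or catagen, FVB/N kidney after folic acid injury, liver 6 h and 24 h into regeneration with a 6 h sham, normal and acutely arthritic synovium, a transgenic hyperdynamic heart with its control, and tumours of the duodenum, jejunum and colon. The labels also mark the brain E18.5 arrays as wt and 1 normal jejunum source of the tumour comparison as WT, and they name the hyperdynamic heart HDmekt and its control CtrlMek, without saying what these names stand for. Beyond these names the labels do not state strain, sex, genotype, adult age, the promoter of the transgene or how many animals were pooled.

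A dividing cell copies its DNA, attaches the copied chromosomes to a spindle of microtubules through kinetochores, and then divides at the midzone of that spindle. Mad2l1 encodes MAD2, the inhibitor by which an unattached kinetochore holds back the anaphase-promoting complex (the spindle checkpoint), and Cenpk encodes a subunit of the constitutive centromere network on which the kinetochore is built. Kif20a encodes a kinesin motor of the central spindle, and Racgap1 encodes a protein that forms the centralspindlin complex with the kinesin Kif23 and directs the cleavage furrow. All 4 are known as genes of cycling cells, so organs that are growing, renewing blood cells or making germ cells are the usual places to find them.

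Many cell cycle genes carry CCAAT boxes close to their start, where NF-Y binds, and some carry the cell cycle homology region TTTGAA, bound by the complexes that silence and then activate late cell cycle genes. Because the 4 genes are described together below, the sequences before their starts are shown, taken from RefSeq on GRCm38.p6, with CCAAT and its reverse ATTGG in capitals. Promoters were found for Racgap1, Mad2l1 and Cenpk (3 alternative starts). The 100 bases before the start of Racgap1, on the minus strand at chr15:99651657-99651756, hold 1 ATTGG, 12 bases before the start. The 100 bases before the start of Mad2l1, on the plus strand at chr6:66535121-66535220, hold neither. For Cenpk, a stretch of 30 bases on the plus strand at chr13:104228901-104228930 holds both; its ATTGG begins 65 bases and its CCAAT 40 bases before the second start, so the stretch does not reach that start.
Racgap1: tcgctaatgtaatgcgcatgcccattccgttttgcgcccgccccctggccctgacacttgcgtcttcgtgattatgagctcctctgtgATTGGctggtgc
Mad2l1: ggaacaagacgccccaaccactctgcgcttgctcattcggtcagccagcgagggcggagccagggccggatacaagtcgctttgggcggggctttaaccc
Cenpk: ATTGGctgcggtgggcgcagctggtCCAAT

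CCAAT, on either strand, was present within 100 bases before the start in 2 of the 5 promoters of these genes and in 18.9% of the 32851 RefSeq promoters, and in the longer windows of 300 bases around the starts in 4 of 5 and in 37.4% of all. TTTGAA or its reverse TTCAAA was in none of the 5 shorter windows (5.77% of all) and in 1 of the 5 longer ones, that of Racgap1. It lies within chr15:99651639-99651658 on the minus strand, with its first base at position 6 when the start base is counted as 1. It is shown in capitals. TTTGAA on either strand stands in 17.9% of all longer windows. TTTGGCGC, an E2F-type site, was in none of the 5 longer windows and in 0.514% of all, on either strand.
Racgap1: gcgtgatTTTGAAccggatc

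Each value below is the deposited log ratio of 1 array, centred by the authors so that a probe's usual array stands at 0, and most likely log2 of tissue over reference. The log base, the scaling and the direction are not stated; were the direction the opposite, every "higher" below would read "lower". Values of different probes cannot be compared as levels, only their differences between sources. Array medians were left in the levels and ranks below. They were -0.78 and -0.45 in the control of the hyperdynamic heart, and ran from -0.92 to -0.47 in the regenerating and 6 h sham livers. The low ranks of these sources therefore include a shift of the whole array. Arrays carried between 5137 and 8658 values (median 8638), and paired arrays of a source correlated at 0.87 in the median over all probes (lowest 0.38). Of 14535 pairs of arrays, 356 correlated below -0.3, all arrays having been read in the same direction. Titles fall into 3 code forms called lots here, AF (86 arrays), AC (69) and # (16), and 22 sources hold arrays of 2 lots. In bulk RNA, fewer dividing cells and less RNA per dividing cell cannot be told apart. Marker lists of the liver, lung, kidney, hair and brain stood high in their own source, and the heart muscle list was highest in heart E14.5 (adult ventricle ranked 14 of 88). Spleen ranked 5 in the B cell list (highest in stimulated lymph node) and 8 in the macrophage and leukocyte list (highest in thymus). Duodenum ranked 7 in the intestinal list (highest in sham ileum), and diestrus uterus 6 in the uterus list (highest in estrus). Only 1 of the 12 T cell markers and 1 of the 16 male germ cell markers had a probe. The T cell marker had its highest source mean in the thymus (arrays 3.94 and 4.08). It also read 2.01 to 4.24 on the arrays of adult brain regions but -0.33 and -0.04 in spleen, so it does not mark T cells alone. The male germ cell marker put testis behind blood mononuclear cells.

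Racgap1 (probe 577676) separated the sources most clearly: the SD of its source means was 4.95 times the SD between arrays of a source. It was highest in lung E13.5, with 2.37 and 2.15 on the arrays, followed by liver E14 (1.95 and 1.76), lung E16.5 (1.61 and 1.93) and pregnant uterus (1.85 and 1.61). These sources are embryonic organs and a uterus at the time of implantation. Among its 10 highest sources, neighbours differed by less than the SD between arrays, apart from the step from lung E13.5 to liver E14. The lowest sources were the control of the hyperdynamic heart (-2.98 and -3.68), the lactating mammary gland (-2.19 and -2.93), adult kidney (-2.81 and -1.86) and the hyperdynamic heart itself (-2.20 and -2.32).

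Kif20a (probe 633209) showed nearly the same order. Lung E13.5 was again first, with 2.91 and 2.93, and stood 0.65 above liver E14 (2.33 and 2.21), more than the SD between arrays. Testis came next (2.18 and 2.17), followed by lung E16.5 (1.75 and 2.52), heart E14.5 (1.95 and 2.20) and pregnant uterus (1.84 and 1.92), whose neighbours were closer than that SD. The same heart control (-2.10 and -2.15) and the spinal cord, whose arrays read -1.27 and -2.90, were at the bottom.

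Cenpk (probe 583580) was measured on 155 arrays and had no level in 8 sources, 7 of them tumours. It peaked in small intestine E16.5 (2.35 and 2.57), testis (2.29 and 2.45), lung E13.5 (2.51 and 1.81) and spleen (2.39 and 1.81). None of these neighbours differed by more than the SD between arrays. With array medians left in, its lowest source was the heart control as well (-1.42 and -1.97), followed by the epididymis tail (-1.38 and -1.71).

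Mad2l1 (probe 426406) ordered the sources differently. Pregnant uterus was highest (1.87 and 1.57), followed by small intestine E16.5 (1.45 and 1.66), the array of activated CD4+ T cells (1.37) and liver E14 (1.34 and 1.29). Lung E13.5 ranked 5, and testis, among the highest sources of the other genes, ranked 59 of 88 with -0.16 and -0.37. Its lowest values were in the liver 6 h into regeneration (-2.29 and -2.80), the heart control (-2.54 and -2.28), the 6 h sham liver (-2.40 and -1.93) and the liver 24 h into regeneration (-2.42 and -1.70). Its other probe, 620733, also had small intestine E16.5 at the top (2.35 and 2.33) and testis in the middle (-0.22 and 0.01), but gave blood mononuclear cells its second place (1.83 and 1.53), where the first probe read -0.58 and -0.93.

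**Figure D1:**
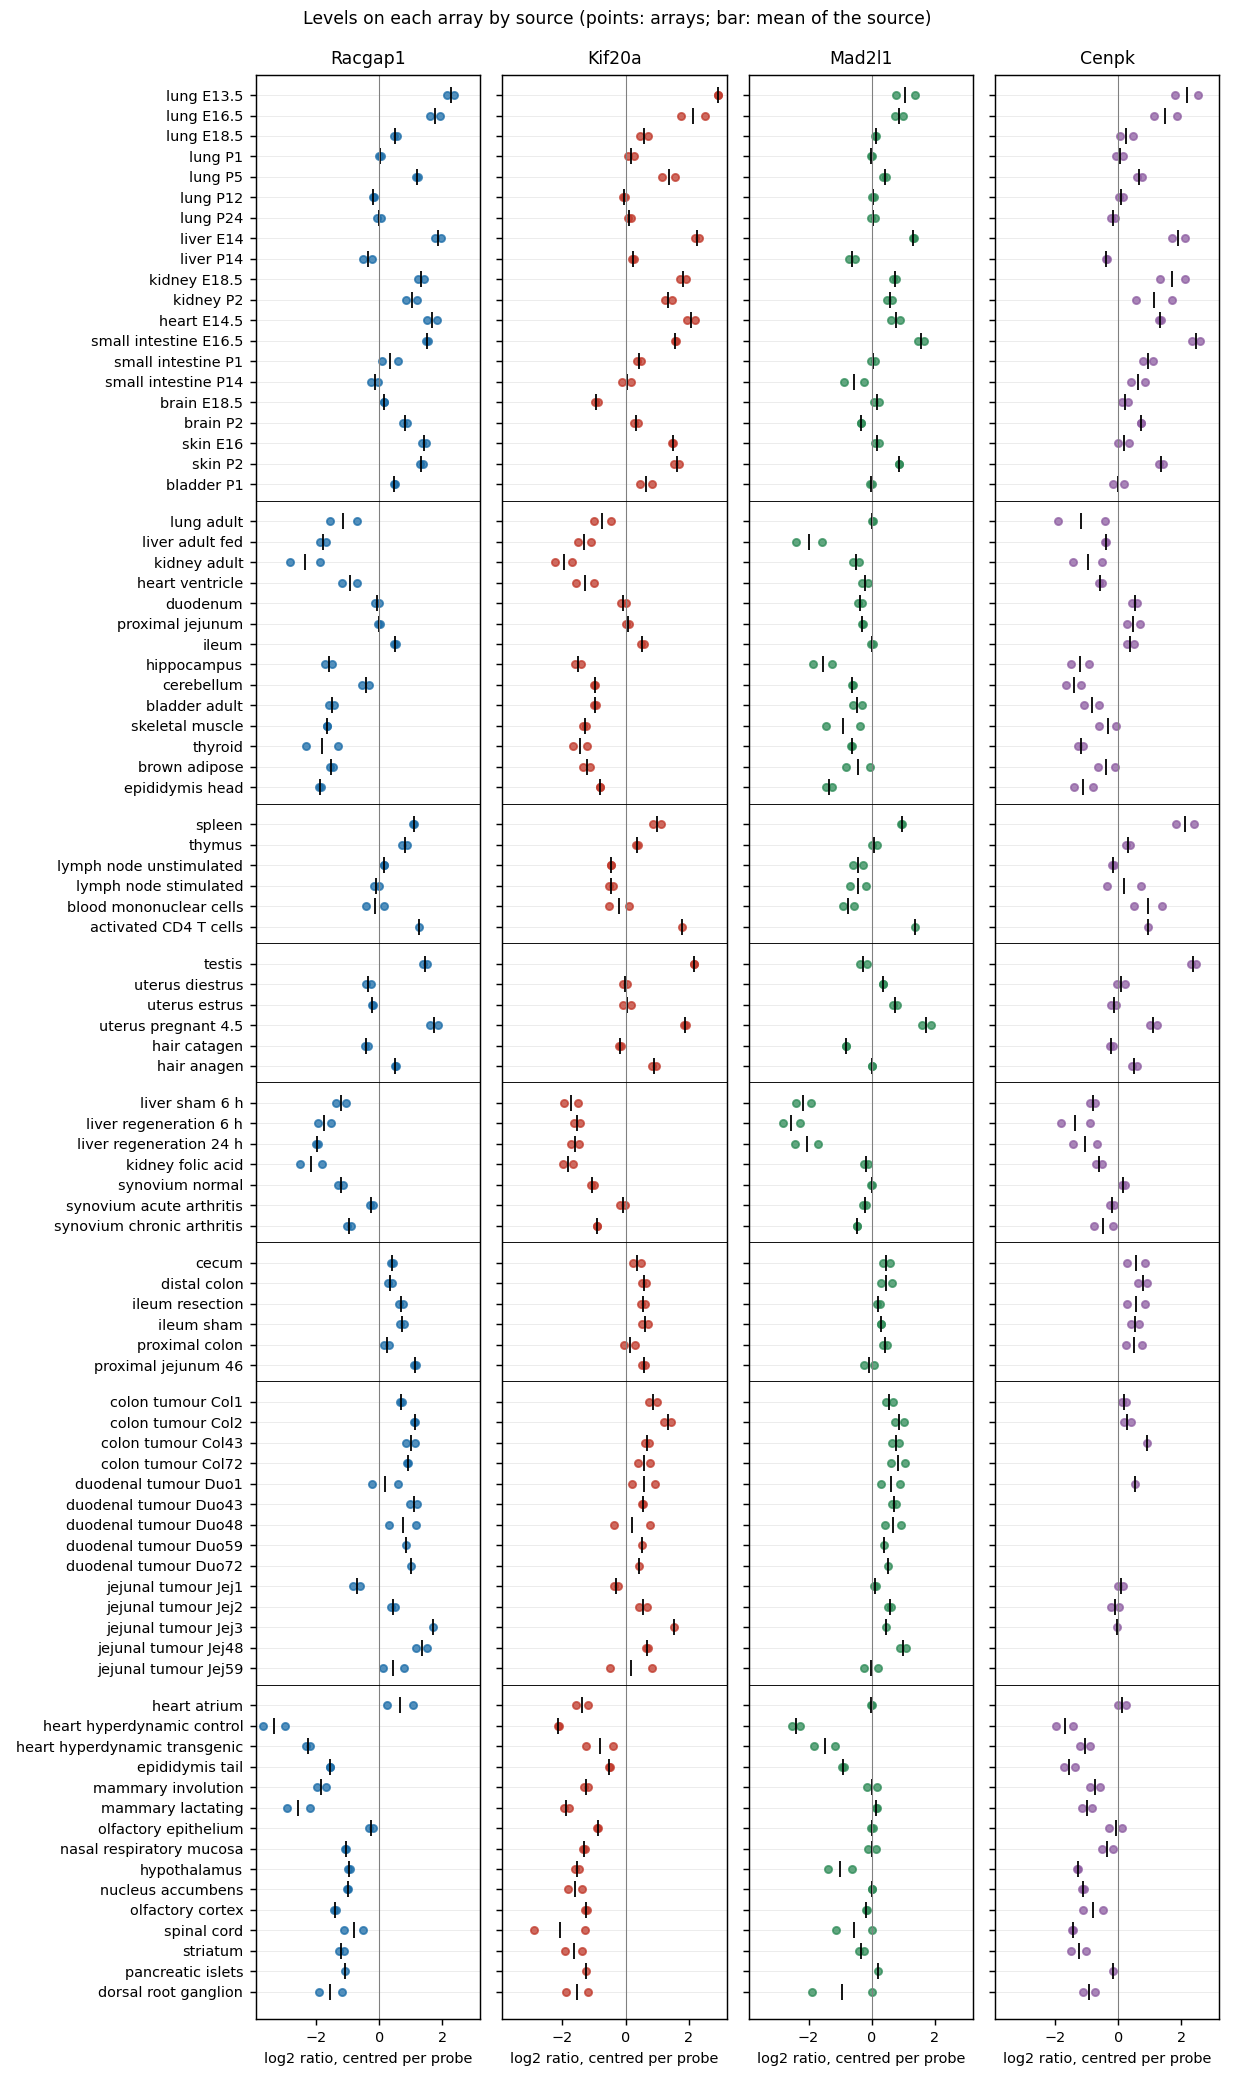
Log2 ratio, centred per probe, on every array (points) of the 88 sources, with the mean of each source as a bar, for 1 probe of each gene; blocks from top to bottom are developing organs, adult organs, lymphoid and blood, testis with uterus and hair, injury, other gut, tumours and other sources. The embryonic sources lie to the right of 0 for Racgap1 and Kif20a except brain E18.5 in Kif20a (-0.88 and -0.98), and testis is far right in Racgap1, Kif20a and Cenpk but left of 0 in Mad2l1 (-0.16 and -0.37).

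Over the source means, Racgap1 and Kif20a correlated at Pearson's r = 0.91 (Spearman's rho 0.92, n = 88 sources), Cenpk with Kif20a at 0.85 (n = 80) and Cenpk with Racgap1 at 0.85 (n = 80). Mad2l1 was the loosest of the 4, at 0.76 with Racgap1, 0.72 with Kif20a and 0.70 with Cenpk. These are descriptions of points that share a reference RNA, arrays and lots, with no test. Named in the plot of these pairs are the heart atrium, where Racgap1 read 0.26 and 1.07 and Kif20a -1.18 and -1.57, and testis, low in Mad2l1. Among 5701 genes, those most like Racgap1 over the sources were Rinl (r = 0.94), Kif20a, Pbk, Mcm7 and Spag5. Those most like Kif20a were Rinl (0.93), Foxm1 (0.92), Mcm7 (0.92), Racgap1 and Mcm6, and those most like Cenpk were Shcbp1 (0.91), Rinl, Arhgap11a, Spag5 and Nek2. The genes nearest to Mad2l1 were Cdk1 (0.92), the mitotic kinase, with Kifc5b, Cdc6, Mcm5 and Lig1, and Racgap1 ranked 36 there.

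**Figure D2:**
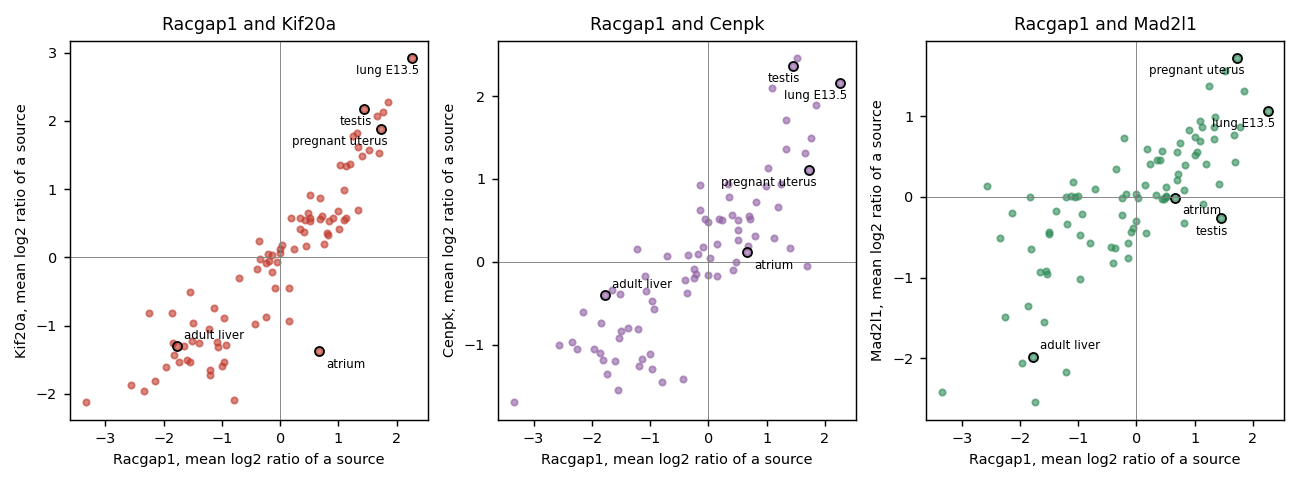
Mean log2 ratio of each source in Racgap1 (x axis) against Kif20a, Cenpk and Mad2l1 (y axes); each point is a source, and circled points are named. Kif20a follows Racgap1 most closely (r = 0.91) with the atrium below the others, and testis lies low in Mad2l1.

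The probes of a gene did not always tell the same story. The second Kif20a probe, 764732, correlated with the first at r = 0.02 over the 88 sources, and its source means varied less than its arrays did (0.82 times the SD between arrays). Statements on Kif20a therefore rest on probe 633209 alone, and selected results of probe 764732 are given separately. Probe 764732 was not called against adult organs in lung E13.5 (-0.13), kidney E18.5 (0.12), heart E14.5 (-0.29) or testis (0.27), unlike probe 633209. Nor was it in pregnant uterus against diestrus (-0.04). It was called, like probe 633209, in thymus against spleen (-1.35, limma adjusted p = 0.014) and spleen against adult organs (0.81, adjusted p = 0.048). In stimulated against unstimulated lymph node it differed by 1.00 (adjusted p = 0.096). The Mad2l1 probes correlated at r = 0.66. Averaging both Kif20a probes ended the call of probe 633209 in lung E18.5, bladder, hair, arthritis, the hyperdynamic heart and both steps around lung P5 (sizes from 0.44 to 0.81, adjusted p 0.061 to 1), and in liver P14 it turned the sign (from 1.54 to -0.08, adjusted p = 0.83). Which probe reads the gene was not tested.

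**Figure D3:**
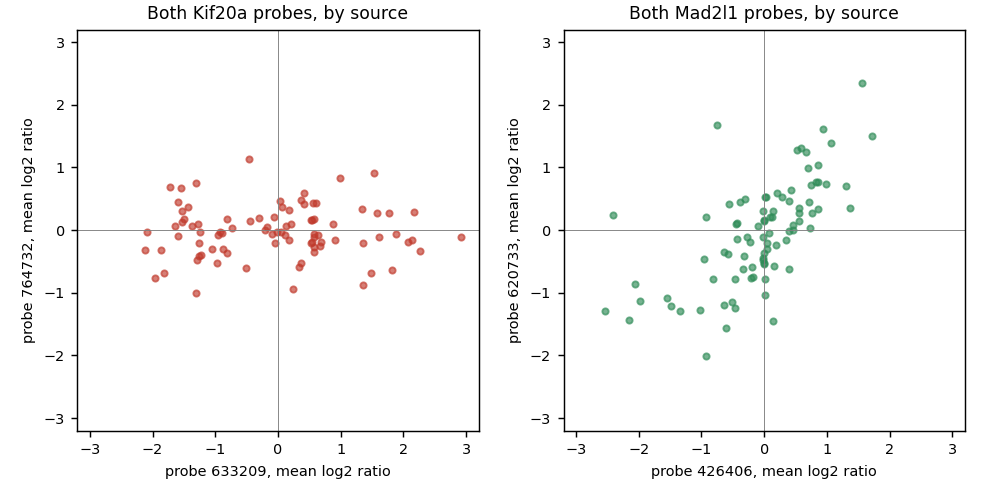
Mean log2 ratio of each source (points) in the first (x axis) and second (y axis) probe of Kif20a and of Mad2l1. The Kif20a points form a flat band (r = 0.02), and the Mad2l1 points rise together (r = 0.66).

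The first question was how the genes differ between growing and adult organs. Over 7 organs (liver, lung, kidney, heart, small intestine, brain and bladder), with the organ as a block, all 4 genes were higher in the youngest stage (4 of 4 called; 2.86% of all 8638 probes were called higher, by limma with Benjamini-Hochberg adjustment over all probes). Racgap1 was higher by 2.55 ± 0.33 (log2, SE, n = 7 organs; adjusted p = 0.01), Kif20a by 2.55 ± 0.42 (adjusted p = 0.022), Cenpk by 2.06 ± 0.27 (adjusted p = 0.01) and Mad2l1 by 1.36 ± 0.31 (adjusted p = 0.05 after rounding, just under the threshold). Each was higher in 7 of 7 organs. In Racgap1 the young and adult means did not overlap, and the difference ran from 1.25 in brain to 3.66 in kidney. Kif20a ran from 0.49 in brain to 3.78 in kidney, Cenpk from 0.84 in bladder to 3.33 in lung and Mad2l1 from 0.44 in bladder to 3.29 in liver. The second Mad2l1 probe gave 1.52 ± 0.18 (adjusted p = 0.007), and the second Kif20a probe was higher in 4 of 7 organs, with -0.19 ± 0.16 (adjusted p = 0.54). Racgap1 kept its call whichever organ was left out. Kif20a lost it without liver, lung, kidney or heart (2.35 to 2.42, adjusted p 0.058 to 0.088), Cenpk without kidney (1.96, adjusted p = 0.052), and Mad2l1 without any organ but liver or bladder (1.29 to 1.46, adjusted p 0.064 to 0.13) or with arrays centred on their medians (1.25, adjusted p = 0.054).

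Other genes of the same pathways were read from fixed lists. Of 27 probes of other mitosis and cytokinesis genes, 7 rose and none fell over the 7 organs, with a median difference of 0.37, beside 0.08 over all probes. The largest of them were Stmn1, a microtubule destabiliser (2.63), Cdk1 (1.73), the centrosomal kinase Nek2 (1.28) and Cenph, another kinetochore subunit (1.13). Of 24 probes of DNA replication genes, 9 rose and none fell, with a median of 1.03, led by the replicative helicase subunits Mcm6 (2.56), Mcm7 (2.00) and Mcm4 (1.86) and the origin recognition subunit Orc6 (1.90).

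Liver gave large differences. At E14, when the fetal liver makes blood, Racgap1 read 1.95 and 1.76 against -1.67 and -1.88 in the adult, Kif20a 2.33 and 2.21 against -1.09 and -1.52, and Mad2l1 1.34 and 1.29 against -1.56 and -2.39. All 4 genes rose (38.7% of all probes were called higher), Racgap1 by 3.63 ± 0.25, Kif20a by 3.58 ± 0.27, Mad2l1 by 3.29 ± 0.28 and Cenpk by 2.29 ± 0.32 (limma adjusted p 5.1e-09 or smaller). The second Kif20a probe moved the other way, by -1.10 ± 0.49 (adjusted p = 0.045). Of 9 erythroid markers, 8 were also higher at E14 and none lower, their mean running from 2.27 to 2.37 on the E14 arrays and from -0.51 to -0.30 on the adult ones; both hepatocyte markers were lower. Their part in the result was not tested. Of the listed mitosis probes 17 of 27 rose and 3 fell (median 1.00, beside 0.19 over all probes), and 21 of 24 replication probes rose and 2 fell (median 2.31).

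At P14 the liver still had 3 of the 4 genes above the adult (7.37% of all probes were called higher): Kif20a by 1.54 ± 0.27 (adjusted p = 6.2e-06), Racgap1 by 1.41 ± 0.25 (adjusted p = 5.7e-06) and Mad2l1 by 1.34 ± 0.28 (adjusted p = 0.00013). Cenpk differed by 0.02 (95% interval -0.62 to 0.67). The second Kif20a probe read -1.70 ± 0.49 here (adjusted p = 0.0047), so the mean of both probes was -0.08, and the second Mad2l1 probe -0.06 (95% interval -0.92 to 0.80). Other mitosis genes did not share the direction: 3 of 27 probes rose and 10 fell, with a median of -0.56 beside -0.34 over all probes, while 10 of 24 replication probes rose and 1 fell. Both liver comparisons, and the one on regeneration at 24 h below, used the same adult arrays.

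The lung was followed over 8 stages, and its genes did not decline steadily. Racgap1 read 2.37 and 2.15 at E13.5, 1.61 and 1.93 at E16.5, 0.47 and 0.56 at E18.5 and -0.01 and 0.07 at P1. At P5 it was back at 1.16 and 1.23, and by P12 it was at -0.20 and -0.17, where P24 (0.06 and -0.06) also stood. Kif20a took the same course, with 0.09 and 0.27 at P1, 1.17 and 1.56 at P5 and -0.09 and -0.01 at P12. Cenpk read -0.06 and 0.16, 0.59 and 0.74, then 0.03 and 0.15 at these stages, and Mad2l1 0.01 and -0.04, 0.36 and 0.45, then 0.00 and 0.08. In all 4 genes the P5 arrays lay above those of both P1 and P12. How many of all probes show this order was not counted, so the order alone says nothing particular about these genes.

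**Figure D4:**
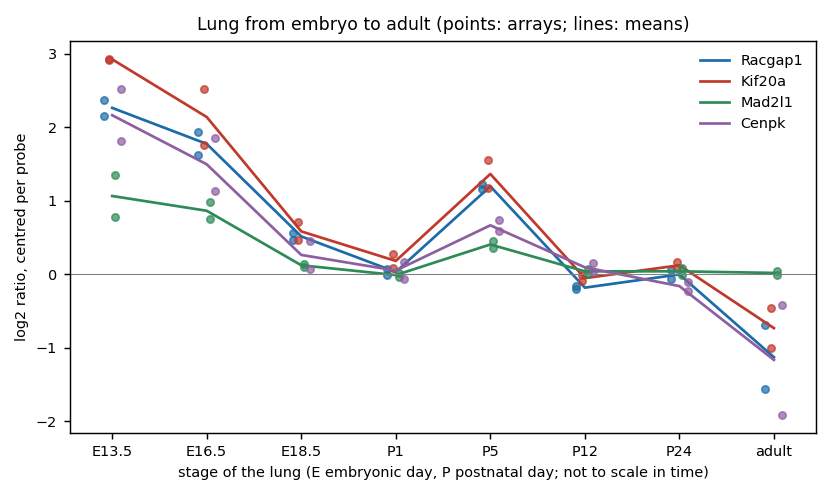
Log2 ratio, centred per probe, of the 4 genes in lung at 8 stages (x axis, not to scale in time); points are arrays and lines join the means. Racgap1 falls from 2.26 at E13.5 to 0.03 at P1, stands at 1.19 at P5 and is at -1.13 in the adult.

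The rise at P5 was tested after the values had been seen. From P1 to P5, Kif20a rose by 1.18 ± 0.27 (adjusted p = 0.0049) and Racgap1 by 1.17 ± 0.25 (adjusted p = 0.0015), which ranked them 11 and 14 among 8638 probes, when 0.498% of all probes were called higher. Cenpk differed by 0.62 ± 0.32 and Mad2l1 by 0.42 ± 0.28 (each adjusted p = 1). From P5 to P12, Kif20a fell by 1.42 (SE 0.27, adjusted p = 0.0021) and Racgap1 by 1.38 (SE 0.25, adjusted p = 0.00058), and 0.185% of all probes were called lower. Cenpk differed by -0.57 ± 0.32 and Mad2l1 by -0.37 ± 0.28 (each adjusted p = 1). Without the second P5 array none of the 4 calls held, although the differences stayed alike (Kif20a 0.99 and -1.22, Racgap1 1.13 and -1.35; adjusted p 0.062 to 0.45). Leaving out the first P1 array ended the first Kif20a call (1.09, adjusted p = 0.14), and leaving out the first P12 array the second (-1.38, adjusted p = 0.076). From P1 to P5, 3 of 24 replication probes and none of 27 other mitosis probes rose.

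Against adult lung, all 4 genes were higher at E13.5 (13.5% of all probes were called higher). Kif20a was higher by 3.66 ± 0.27, Racgap1 by 3.39 ± 0.25 and Cenpk by 3.33 ± 0.32 (adjusted p 4.5e-14 or smaller), which ranked 4, 10 and 11 among 8638 probes, and Mad2l1 by 1.05 ± 0.28 (adjusted p = 0.0031). The second Mad2l1 probe gave 2.16 ± 0.43 (adjusted p = 4.6e-05). At E18.5, 3 genes were higher (1.26% called higher), from Racgap1 at 1.64 ± 0.25 (adjusted p = 8.1e-07) to Kif20a at 1.32 ± 0.27 (adjusted p = 0.00079), and at P5 the same 3 (1.83% called higher), led by Racgap1 at 2.32 ± 0.25 (adjusted p = 1.3e-11). Mad2l1 differed by 0.10 (95% interval -0.46 to 0.66) at E18.5 and 0.39 (95% interval -0.17 to 0.95) at P5. At P24, Racgap1 was higher by 1.13 ± 0.25 (adjusted p = 0.0092) and was the single probe called higher (0.0116%). The 4 comparisons share the adult arrays, of which the AC one was the lower in Racgap1 (-1.56 against -0.70) and Cenpk (-1.91 against -0.42). Without it Racgap1 at P24 was 0.69 (adjusted p = 1), Cenpk 0.68 at E18.5 (adjusted p = 0.97) and 1.09 at P5 (adjusted p = 0.24), and Kif20a 1.04 at E18.5 (adjusted p = 0.16); without the AF one Cenpk was called at P24 (1.75, adjusted p = 0.0042). Without the second E18.5 array Cenpk (1.23, adjusted p = 0.15) and Kif20a (1.19, adjusted p = 0.058) missed the threshold at E18.5, as Racgap1 did at P24 without either P24 array (1.07 and 1.19, adjusted p = 0.36 and 0.095). Quantile normalization called Kif20a at P24 (1.28, adjusted p = 6.5e-05). Without the first E13.5 array, Mad2l1 was 0.76 there (adjusted p = 0.13). Of the other mitosis probes, 8 of 27 rose at E13.5 and 1 of 27 at E18.5, and of replication probes 18 of 24 and 0 of 24, none falling. The 4 lung epithelium markers were all lower at E13.5 (array means 0.36 to 0.84 against 5.08 to 5.68), and none of them was called at P5 (4.97 to 5.20); their part in the differences was not tested.

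Kidney, whose nephrons are still being formed around birth, ranked with the lung. Racgap1 read 1.42 and 1.24 at E18.5, 0.86 and 1.20 at P2, and -2.81 and -1.86 in the adult, and Kif20a 1.92 and 1.72, 1.24 and 1.47, and -2.22 and -1.70. All 4 genes were higher than in the adult at E18.5 (22% of all probes were called higher) and at P2 (10.5%), comparisons that share the adult arrays. At E18.5 Kif20a was higher by 3.78 ± 0.27, Racgap1 by 3.66 ± 0.25, Cenpk by 2.68 ± 0.32 and Mad2l1 by 1.22 ± 0.28 (adjusted p 0.00034 or smaller). At P2 the differences were 3.31 ± 0.27, 3.37 ± 0.25, 2.10 ± 0.32 and 1.06 ± 0.28 in the same order (adjusted p 0.0035 or smaller), and Kif20a and Racgap1 ranked 6 and 5 among 8638 probes. All 3 tubule markers were lower at E18.5 than in the adult (array means 0.58 to 0.67 against 2.38 to 2.93), and 1 of 3 at P2; their part was not tested. Mad2l1 at P2 missed the threshold without the second P2 array (0.98, adjusted p = 0.059).

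Heart E14.5 exceeded adult ventricle in all 4 genes (19.8% of all probes were called higher). Kif20a, at 1.95 and 2.20 against -1.0 and -1.56, was higher by 3.35 ± 0.27, Racgap1 by 2.60 ± 0.25, Cenpk by 1.88 ± 0.32 and Mad2l1 by 0.97 ± 0.28 (adjusted p 0.0057 or smaller). The Mad2l1 call was lost without the second E14.5 array (0.83, adjusted p = 0.11) or the first ventricle array (0.88, adjusted p = 0.055). Of 4 heart muscle markers 3 were higher at E14.5 too (array means 2.46 to 2.73 against 0.46 to 0.68), and their part was not tested. Bladder at P1 exceeded the adult in Racgap1 (0.49 and 0.46 against -1.42 and -1.58; 1.98 ± 0.25, adjusted p = 2.7e-09) and Kif20a (1.61 ± 0.27, adjusted p = 1.1e-05), 2 of 4 genes where 1.86% of all probes were called higher. Cenpk differed by 0.84 ± 0.32 (adjusted p = 0.15) and Mad2l1 by 0.44 ± 0.28 (adjusted p = 0.66); under quantile normalization both were called (1.37 and 0.79, adjusted p = 4.1e-04 and 0.021).

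In the small intestine, where the crypt epithelium keeps dividing in the adult, Racgap1 and Kif20a differed less than in liver, lung, kidney and heart. Brain at E18.5 had smaller differences still (1.25 and 0.49), and bladder was close in Kif20a (1.61). The part of crypt division was not tested. In the intestine at E16.5 all 4 genes were above the adult duodenum, jejunum and ileum (23.6% of all probes were called higher): Cenpk by 2.00 ± 0.27, Mad2l1 by 1.78 ± 0.23, Kif20a by 1.40 ± 0.22 and Racgap1 by 1.37 ± 0.20 (adjusted p 1.1e-07 or smaller). The SEs here and at P1 rest on the spread between arrays of a source. The spread between the adult parts does not enter them. In Racgap1 the adult arrays ran from -0.13 to 0.53, far above adult kidney or liver. Of 6 macrophage and leukocyte markers 4 were lower at E16.5 (array means -0.55 to -0.54 against 0.08 to 0.36) and 2 of 9 erythroid markers were higher; their part was not tested. At P1 none of the 4 was called against the same adult arrays (11.9% of all probes were called higher and 11.1% lower). The differences were 0.48 for Cenpk (95% interval -0.05 to 1.01), 0.25 for Mad2l1 (-0.21 to 0.71), 0.24 for Kif20a (-0.20 to 0.68) and 0.19 for Racgap1 (-0.21 to 0.59). The excess over the adult was larger in kidney P2 than in intestine P1 by 3.18 ± 0.32 for Racgap1 (adjusted p = 1.8e-13), 3.07 ± 0.35 for Kif20a (adjusted p = 2.7e-11) and 1.62 ± 0.42 for Cenpk (adjusted p = 0.0034), with 8.23% of all probes called in this direction in a test chosen after the values were seen. For Mad2l1 it was 0.81 ± 0.36 (adjusted p = 0.14), called under quantile normalization (1.08, adjusted p = 0.0095) and over both probes (1.04, adjusted p = 0.027).

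Brain at E18.5 and P2, as one group, exceeded 6 adult regions in all 4 genes (38.4% of all probes were called higher), by 1.64 ± 0.19 in Cenpk, 1.58 ± 0.14 in Racgap1, 1.12 ± 0.16 in Kif20a and 0.52 ± 0.16 in Mad2l1 (adjusted p 0.005 or smaller). These SEs rest on the spread between arrays of a source. The spread between the stages and between the 6 regions does not enter them. Young and adult arrays overlapped in Kif20a and Mad2l1. The stages were unlike each other in Kif20a, which read -0.88 and -0.98 at E18.5 but 0.25 and 0.41 at P2; they also differ in lot, AF and AC, and the difference between them was not tested. Of 5 neuron and glia markers 3 were lower in the young brain (array means 2.38 to 2.93 against 3.66 to 5.08), and their part was not tested. The Mad2l1 call did not hold with arrays centred on their medians (0.31, adjusted p = 0.076) or quantile normalized (0.30, adjusted p = 0.069). Skin was already high in Racgap1 at E16 (1.35 and 1.47) and alike at P2 (1.28 and 1.40). From E16 to P2, Cenpk rose by 1.19 ± 0.32 (adjusted p = 0.014; 1 of 4 genes, 4.47% of all probes called higher), a call lost without the first E16 array or either P2 array (1.01 to 1.25, adjusted p 0.088 to 0.22). At P2, 2 of 4 hair and epidermis markers were higher (array means 2.79 to 2.83 against 1.35 to 1.44) and 3 of 9 erythroid markers lower (-0.29 to -0.26 against 0.48 to 0.50); their part was not tested. Mad2l1 differed by 0.71 ± 0.28 (adjusted p = 0.1), called under quantile normalization (0.72, adjusted p = 0.028) and over both probes (1.16, adjusted p = 0.0018), and its second probe by 1.62 ± 0.43 (adjusted p = 0.011).

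**Figure D5:**
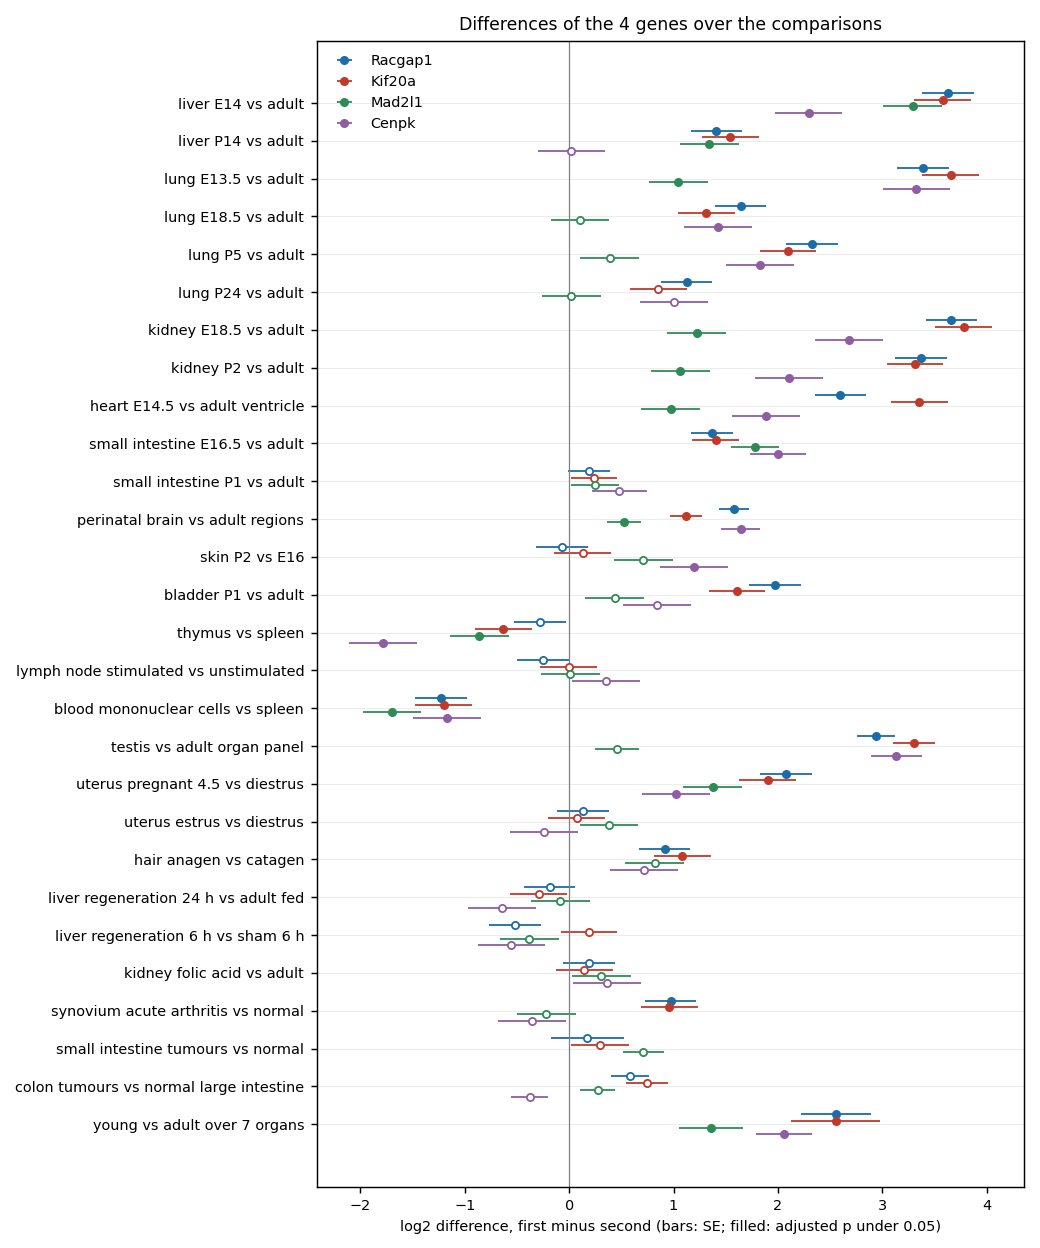
Log2 difference (first source minus second) with its SE for each gene in each comparison, 2 arrays a source in most; filled points passed an adjusted p of 0.05. Racgap1 and Kif20a lie close together in most comparisons, from 3.66 and 3.78 in kidney E18.5 to 0.19 and 0.14 in kidney after folic acid.

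Lymphoid organs were compared next. Spleen, which in mice also makes red cells, read 1.10 and 1.08 in Racgap1, 1.12 and 0.86 in Kif20a, 0.92 and 0.97 in Mad2l1 and 2.39 and 1.81 in Cenpk. Against a panel of 10 adult organs all 4 genes were higher (41.4% of all probes were called higher, in a comparison chosen after the values were seen), by 2.87 ± 0.24 in Cenpk, 2.58 ± 0.18 in Racgap1, 2.12 ± 0.20 in Kif20a and 1.67 ± 0.21 in Mad2l1 (adjusted p 6.8e-11 or smaller). All 9 erythroid and 3 B cell markers were higher in spleen too, the erythroid mean running from 2.25 to 2.39 on the spleen arrays and from -0.51 to 0.50 over the panel. Their part was not tested. The second spleen array held 5495 values and had none for the second Mad2l1 probe. SEs against the panel, for thymus and testis below as well, rest on the spread between arrays of a source. The spread between the 10 panel organs does not enter them.

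Thymus, where T cell precursors divide, exceeded the same panel in all 4 genes as well (42.9% called higher, also in a comparison chosen after the values were seen), from 2.30 ± 0.18 in Racgap1 to 0.81 ± 0.21 in Mad2l1 (adjusted p 0.00052 or smaller). Against spleen it was lower in 3 of 4 genes (26.6% of all probes were called lower): Cenpk by -1.78 ± 0.32 (adjusted p = 2.4e-06), Mad2l1 by -0.86 ± 0.28 (adjusted p = 0.0064) and Kif20a by -0.63 ± 0.27 (adjusted p = 0.04). Racgap1 differed by -0.28 (95% interval -0.77 to 0.21). Thymus arrays are of the AC lot and spleen arrays of the AF lot; with lot as a block Kif20a was -0.44 (adjusted p = 0.16), and it missed the threshold with quantile normalization (-0.51, adjusted p = 0.058) and without either thymus array or the first spleen array (-0.50 to -0.66, adjusted p 0.094 to 0.2). Mad2l1 missed it without the second thymus array (-0.78, adjusted p = 0.053). Other mitosis genes were mostly lower in thymus, 23 of 27 probes against 1 higher, with a median of -1.26 beside 0.05 over all probes. All 9 erythroid and 3 B cell markers were lower in thymus as well, and their part was not tested.

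Blood mononuclear cells, mostly resting lymphocytes and monocytes, were below spleen in all 4 genes (28.5% of all probes were called lower), by -1.70 ± 0.28 in Mad2l1, -1.23 ± 0.25 in Racgap1, -1.20 ± 0.27 in Kif20a and -1.17 ± 0.32 in Cenpk (adjusted p 0.0023 or smaller). Cenpk lost its call without the first spleen array (-0.88, adjusted p = 0.066) or the second blood array (-0.73, adjusted p = 0.13), and the second Mad2l1 probe differed by 0.06 (95% interval -0.99 to 1.11). The listed mitosis genes were lower in 21 of 27 probes and higher in 1. Of 9 erythroid markers 6 were lower and 2 higher in blood, and their part was not tested. The single array of activated CD4+ T cells stood at 1.77 in Kif20a, 1.37 in Mad2l1, 1.25 in Racgap1 and 0.94 in Cenpk; with 1 array it was not compared.

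In the lymph node, stimulation with adjuvant moved none of the 4 genes past the threshold (22% of all probes were called higher and 17.9% lower). Cenpk differed by 0.35 (95% interval -0.29 to 1.00), Racgap1 by -0.25 (-0.74 to 0.24), Mad2l1 by 0.01 (-0.55 to 0.57) and Kif20a by -0.01 (-0.55 to 0.54). In Cenpk the stimulated arrays, of different lots, were far apart (-0.37 and 0.72). Other mitosis genes did change: 11 of 27 probes rose and none fell, led by the kinesin Kif22 (1.98), Cdca3 (1.74), the chromosomal passenger Birc5 (1.17) and the condensin subunit Ncaph (1.15), while 3 of 24 replication probes rose and 3 fell, Mcm6 by -1.70. Of 9 erythroid markers 6 were higher after stimulation (array means 0.07 to 0.08 against -1.0 to -0.91), and their part was not tested.

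Testis, in which spermatogonia divide and spermatocytes pass through meiosis, split the genes. Kif20a read 2.18 and 2.17, Cenpk 2.29 and 2.45 and Racgap1 1.51 and 1.39, against means of -1.13, -0.77 and -1.49 over the panel also used for spleen and thymus. These 3 genes were higher than the panel (29.7% of all probes were called higher), by 3.30 ± 0.20, 3.14 ± 0.24 and 2.94 ± 0.18 (adjusted p 4.6e-20 or smaller), with no overlap of testis and panel arrays. The share of all probes without such overlap was not counted. Mad2l1 differed by 0.46 ± 0.21 (adjusted p = 0.051) and its second probe by 0.67 ± 0.32 (adjusted p = 0.065), and both overlapped the panel. The Mad2l1 difference was called under centring (0.44, adjusted p = 0.047), quantile normalization (0.47, adjusted p = 0.03), lot as a block (0.49, adjusted p = 0.042) and the mean of its probes (0.56, adjusted p = 0.0098), and without any of 4 panel arrays (liver 1, kidney 1, ventricle 2 or bladder 1; 0.47 to 0.50, adjusted p 0.031 to 0.049). Whether Mad2l1 differs from the other genes in testis was not tested, since probes are not on a common scale. Of the other mitosis genes 16 of 27 probes rose and none fell, with Nek2 at 3.57, Stmn1 at 3.45, the securin Pttg1 at 1.81 and the kinesin Kif2c at 1.81.

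The uterus at day 4.5 of pregnancy, when embryos implant and the stroma begins to proliferate, was above diestrus in all 4 genes (2.77% of all probes were called higher). Racgap1 read 1.85 and 1.61 against -0.27 and -0.43 and was higher by 2.08 ± 0.25 (adjusted p = 1.4e-09), which ranked 7 among 8638 probes. Kif20a, at 1.84 and 1.92 against 0.03 and -0.07, was higher by 1.90 ± 0.27 (adjusted p = 4.4e-07). Mad2l1, at 1.87 and 1.57 against 0.34 and 0.35, was higher by 1.37 ± 0.28 (adjusted p = 0.00042), and its second probe by 1.66 ± 0.43 (adjusted p = 0.0062). Cenpk was higher by 1.02 ± 0.32 (adjusted p = 0.03), a call that did not survive leaving out any single array (0.90 to 1.14, adjusted p 0.089 to 0.25). Estrus against the same diestrus arrays gave no call in the 4 genes (2.82% called higher, 12.3% lower); Mad2l1 differed by 0.38 ± 0.28 (adjusted p = 0.45), called under quantile normalization (0.74, adjusted p = 0.025), and the others by -0.24 to 0.13. In pregnancy 4 of 27 other mitosis probes rose, Nek2 (1.51), Stmn1 (1.39), the chromokinesin Kif4 (1.29) and Cdk1 (1.18), and none fell; in estrus none rose and 5 fell.

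Hair in anagen, the growth phase in which matrix cells divide, was above catagen, the phase of regression, in Kif20a (0.85 and 0.97 against -0.14 and -0.21; 1.09 ± 0.27, adjusted p = 0.0066) and Racgap1 (0.50 and 0.52 against -0.45 and -0.36; 0.91 ± 0.25, adjusted p = 0.014), where 2.21% of all probes were called higher. Mad2l1, at 0.01 and -0.01 against -0.82 and -0.82, differed by 0.82 ± 0.28 (adjusted p = 0.077; called with quantile normalization, 1.10, adjusted p = 0.00098, and over both probes, 0.87, adjusted p = 0.033). Cenpk differed by 0.72 ± 0.32 (adjusted p = 0.26). In the first probe of each gene both anagen arrays were above both catagen arrays. The share of all probes separated like this was not counted. The second Kif20a probe was separated the other way (-0.20, adjusted p = 0.97). Leaving out any array ended the Racgap1 call (0.87 to 0.96, adjusted p 0.1 to 0.14), and 3 of the 4 arrays the Kif20a call (1.02 to 1.12, adjusted p 0.062 to 0.11). Of 4 hair and epidermis markers 3 were higher in anagen, their mean running from 3.18 to 3.24 against 1.76 to 1.80, and 4 of 6 macrophage and leukocyte markers were lower. Their part was not tested.

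Injury moved few of the genes. The liver 24 h into regeneration gave no call against fed adult liver (2.57% of all probes were called higher and 11.4% lower), with Racgap1 at -1.93 and -1.99, Kif20a at -1.73 and -1.47 and differences from -0.65 (Cenpk) to -0.08 (Mad2l1). In Racgap1 the 95% interval ran from -0.68 to 0.30. Array medians were left in these values. The median difference at 24 h was -0.24 over the 4 genes and -0.24 over all probes. At 6 h none was called against the sham (1.53% higher, 6.46% lower), the differences running from -0.55 (Cenpk) to 0.19 (Kif20a). Kidney after folic acid gave none against adult kidney (5.83% higher, 3.04% lower), with differences of 0.14 (Kif20a) to 0.36 (Cenpk). With lot as a block, Cenpk was lower at 24 h (-0.83, adjusted p = 0.041). In acutely arthritic synovium Racgap1 (-0.30 and -0.19 against -1.29 and -1.14; 0.97 ± 0.25, adjusted p = 0.0041) and Kif20a (-0.02 and -0.16 against -1.09 and -1.01; 0.96 ± 0.27, adjusted p = 0.012) were higher than in normal synovium (8.46% of all probes were called higher), and Mad2l1 (-0.22 ± 0.28) and Cenpk (-0.36 ± 0.32) were not. Any array left out ended the Kif20a call (0.89 to 1.03, adjusted p 0.051 to 0.14), and 2 of 4 the Racgap1 call (0.90 and 0.91, adjusted p = 0.078 and 0.06). Of 6 macrophage and leukocyte markers 4 were higher in the arthritic synovium, their mean running from 1.19 to 1.19 against -0.09 to 0.01. The 1 T cell marker with a probe was higher too, but it is also high in adult brain regions and not in spleen. The part of these markers was not tested. None of the 27 other mitosis probes was called.

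In the heart, 2 comparisons were chosen after the values were seen. Atrium exceeded ventricle in Racgap1 (0.26 and 1.07 against -0.70 and -1.16; 1.60 ± 0.25, adjusted p = 2.2e-06), 1 of 4 genes where 5.41% of all probes were called higher, and Kif20a differed by -0.10 (95% interval -0.64 to 0.44). With 1 array left out, the Racgap1 call held (1.19 to 2.00, adjusted p 0.023 or smaller), but the number of probes called in either direction, 731 over all 4 arrays, was 59 without the second atrium array, 1353 without the first and 248 without the second ventricle array. Of 4 heart muscle markers 2 were higher in atrium, where the arrays stood apart (means 1.76 and 2.85, against 0.46 and 0.68 in ventricle), and their part was not tested. The transgenic hyperdynamic heart exceeded its control, the lowest source of Racgap1, Kif20a and Cenpk, in Kif20a (1.30 ± 0.27, adjusted p = 0.00037), Racgap1 (1.07 ± 0.25, adjusted p = 0.0015) and Mad2l1 (0.92 ± 0.28, adjusted p = 0.02), where 8.8% of all probes were called higher. Quantile normalization ended these calls (0.73, 0.41 and 0.38, adjusted p 0.07 to 0.75). The second Mad2l1 probe moved the other way, by -1.45 ± 0.43 (adjusted p = 0.016), its control arrays reading -1.08 and 1.56, and the mean of both Mad2l1 probes was -0.27 (adjusted p = 0.6). Leaving out the second transgenic array ended the Kif20a and Mad2l1 calls (0.87 and 0.59, adjusted p = 0.12 and 0.42), the first control array the Mad2l1 call (0.79, adjusted p = 0.19) and the second control array the Racgap1 call (0.72, adjusted p = 0.1).

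Intestinal tumours were compared with normal gut with each source as the unit and the title form as a covariate. The source labels Duo48 and Jej48 share a number, as do Duo59 and Jej59. Whether such sources came from the same animal is not stated. Each was counted as independent, so the p-values may be too small. None of the genes passed in the tumours of the small intestine (10 sources against 3, 0.389% of all probes called higher and 0.672% lower). In the colon none passed either (3.16% called higher and 3.99% lower). The colon fit held 4 tumour and 3 normal sources, but only the tumours Col43 and Col72 had the # title form. The covariate took up both, so the colon differences are those of Col1 and Col2 against the 3 normal sources. Without the covariate no gene passed in either tumour comparison. In the small intestine Mad2l1 differed by 0.71 ± 0.19 (adjusted p = 0.087), with every tumour mean above every normal one, Kif20a by 0.30 ± 0.28 and Racgap1 by 0.17 ± 0.35; Cenpk was not tested there. Without the jejunal tumour Jej59 the Mad2l1 difference was called (0.76, adjusted p = 0.044). In the colon Kif20a differed by 0.75 ± 0.20 (adjusted p = 0.057), Racgap1 by 0.58 ± 0.18 (adjusted p = 0.089), Mad2l1 by 0.27 ± 0.17 (adjusted p = 0.36) and Cenpk by -0.38 ± 0.17 (adjusted p = 0.23). Without the colon tumour Col1 the differences were 0.98 for Kif20a and 0.80 for Racgap1, and rested on Col2 alone. Quantile normalization called both genes (1.12 and 0.84, adjusted p = 0.0086 and 0.012), and centring the arrays called Kif20a (0.75, adjusted p = 0.041). Of 22 replication probes 3 rose in colon tumours, Mcm4 by 1.17, Mcm7 by 0.96 and the hemimethylated-DNA binder Uhrf1 by 0.69. Of 5 intestinal epithelium markers 2 were lower in colon tumours, and their part was not tested.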

How the data were processed

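The arrays have 2 channels, tissue RNA and a universal mouse reference RNA, per the labels. The values used are the authors' deposited log ratios, treated as log2; the labels do not state scanner, background correction, dyes or normalization. The authors' values are centred per probe (99.8% of probe medians lie within 0.001 of 0), and array medians run from -0.92 to 0.24. Probes were named through the platform annotation (7540 with a single symbol). Where a gene has several probes, the one with values on the most arrays stands for it.

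Differences come from limma 3.58.1 in R 4.3.3: one mean per source over all arrays, eBayes, Benjamini-Hochberg adjustment over all 8638 probes with values on at least 80% of arrays, threshold 0.05. Source means were the unit for tumours (title form as covariate) and for the 7 organs (organ as block). Fits were tested on simulated data. The 4 genes, the gene lists and the comparisons were chosen with earlier results of these data known. Named genes are the 4 members, their 5 nearest genes by Pearson's r over source means, and up to 4 called list genes of largest change per comparison. Alternatives were array centring, quantile normalization, lot as a block, a stricter filter on missing values, the mean of a gene's probes, no covariate or block, and leaving out each array, source or organ. Figures were drawn with Python 3.11.15 and matplotlib 3.10.9.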

Additional observations from a re-analysis of the deposited data

Results flagged for a closer look

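In the 7 organ differences of the second Kif20a probe (764732), liver stood apart, at -1.10 with the nearest organ at -0.29. This was the single set to pass Dixon's test among 29 sets of 4 to 10 values, and chance flags about 1 in 20 such sets.

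The excess of young over adult tissue differed between kidney at P2 and small intestine at P1, by 3.18 for Racgap1, 3.07 for Kif20a and 1.62 for Cenpk, in an interaction test chosen after the values were seen. The Cenpk difference was not called without the first adult kidney array (1.15, adjusted p = 0.12) or the second P2 kidney array (1.05, adjusted p = 0.15).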

How the results depend on the processing

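Over single members, called values were 41 of 56 in development (37 to 42 with 1 array left out), 7 of 12 in lymphoid sources (5 to 7), 9 of 16 in testis, uterus and hair (7 to 10), 2 of 16 in injury (0 to 2), 0 of 7 in tumours (0 to 2; 1 with arrays centred, 2 with quantile normalization), 4 of 4 over the organs (1 to 4) and 19 of 28 in the comparisons chosen later (15 to 19). Beside them, the share of all probes called in the direction of the called members ran from 0.0116% (lung P24) to 38.7% (liver E14) in development. It was 26.6% and 28.5% in lymphoid sources, 2.21% to 29.7% in testis, uterus and hair, and 8.46% in arthritis. Over the organs it was 2.86%, and it ran from 0.185% (lung P12) to 42.9% (thymus) in the comparisons chosen later. Each of 82 arrays was left out in turn. A lone array was assumed to vary like those of the other sources. No paired analysis was possible because the replicate numbers follow accession order and pair no arrays; lot as a block, which also compares AC with AC and AF with AF arrays in kidney and the hyperdynamic heart, ended 1 call and added 2, all given above. Of the changes of sign, 2 began from a called value: Kif20a in liver P14 (-0.079) and Mad2l1 in the hyperdynamic heart (-0.27), both over the mean of a gene's probes. The others began from values that had not passed the threshold (-0.38 to 0.36). Centring the arrays turned Kif20a in skin (-0.026) and lymph node (0.0072) and, in liver at 24 h, Mad2l1 (0.12) and Racgap1 (0.016). Quantile normalization turned Kif20a in lymph node (0.075), Mad2l1 (0.097) and Racgap1 (0.11) in liver at 24 h, Mad2l1 in liver at 6 h (0.13), and Kif20a (-0.15) and Racgap1 (-0.36) after folic acid. Lot as a block turned Mad2l1 in lung P24 (-0.0057) and Kif20a in lymph node (0.088). The mean of probes turned Kif20a in lymph node (0.50) and Mad2l1 in liver at 24 h (0.0952). Leaving out 1 array or source gave ranges across 0 for Mad2l1 in liver at 24 h (-0.50 to 0.33) and lung P24 (-0.029 to 0.073), for Cenpk (-0.10 to 0.83), Kif20a (-0.11 to 0.40) and Racgap1 (-0.28 to 0.67) after folic acid, for Kif20a in atrium (-0.38 to 0.19), estrus (-0.050 to 0.19) and liver at 6 h (-0.036 to 0.42), for Racgap1 in intestine P1 (-0.068 to 0.44) and intestinal tumours (-0.094 to 0.43), and for Cenpk (-0.19 to 0.90), Kif20a (-0.060 to 0.049) and Mad2l1 (-0.24 to 0.26) in lymph node. Quantile normalization moved the count of all called probes by over 1.5 times in 24 of 35 comparisons, for example to 682 from 3345 in liver P14, 1356 from 219 in lung E18.5, 1039 from 234 in lung P5, 106 from 1208 in liver at 24 h and 140 from 991 in the hyperdynamic heart; centring did so in 2 (703 from 1208 in liver at 24 h, and the organs), and leaving out the title form in 1 (38 from 90 in intestinal tumours). Leaving out 1 array, source or organ did so in 81 of 179 runs, in 29 of 34 comparisons, and the percentages called move with these counts: for any array in hair (129 to 166, from 428), skin (161 to 260, from 621), arthritis (367 to 459, from 783) and liver P14 (1849 to 2043, from 3345), for the first spleen array in spleen against the panel (2228 from 5215), thymus (2900 from 5040) and blood (2231 from 3680), for the AC array of adult lung at E18.5 (78 from 219), P5 (80 from 234) and P24 (11 from 18), and for the second lung P5 array in both steps (45 from 115 and 3 from 16). The range was 139 to 679 in pregnant uterus (from 857; lowest without its second array), 0 to 534 in intestinal tumours (from 90; 0 without normal duodenum or proximal jejunum, 534 without proximal jejunum 46), 218 to 1880 in colon tumours (from 613; without cecum and without Col1) and 25 to 448 over the organs (from 269; without kidney and without bladder). Centring moved the median of all probes from 0.19 to -0.21 in liver E14, from -0.34 to -0.09 in liver P14 and from 0.29 to 0.03 in spleen against the panel. Without Col1 the colon tumour differences rest on Col2 alone, as do the tumour count of 2 with a source left out and the 1880 probes called. The causes were not tested. The number of arrays, 2 a source, limits the precision.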
